A study of Mus musculus with 12 samples.

Results

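The genes described here encode solute carriers, the membrane proteins that move amino acids, sugars, lactate, nucleosides, ions and metals across the plasma membrane and the membranes of organelles. They were taken by rule as protein-coding rows whose gene symbol begins with Slc, a family number, the letter a and a member number. The rule found 142 genes from 41 families among the 9266 protein-coding genes with a row in at least 1 of 3 deposited tables. It also took 3 genes that carry such a symbol but are not carriers, namely Slc7a6os, which lies beside Slc7a6 on the other strand, and Slc9a3r1 and Slc9a3r2, which encode scaffold proteins of the plasma membrane.

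The study used C2C12 cells, a mouse myoblast line that divides in serum-rich growth medium and fuses into myotubes after transfer to medium with little serum. The RNA-seq set holds 8 libraries in 4 groups of 2 replicates. The GFP D0 group overexpressed GFP and was kept in growth medium, and the GFP D4 group overexpressed GFP and had been in differentiation medium for 4 days. The M3 D0 and M14 D0 groups overexpressed METTL3 or METTL14, the pair of proteins that form the core of the m6A RNA methyltransferase. All groups, the GFP control included, carried an overexpression vector, with the inserted mouse cDNA for METTL3 or METTL14 placed behind a CMV promoter in the vector. Whether the lines were clones or pools is not given in the sources used here. The 2 M14 libraries are titled D0 but have D4 in their time field, while the table made from them is headed as growth medium. A further 4 libraries of immunoprecipitated and input RNA were not used here.

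The D4 table compares GFP cells at day 4 with GFP cells in growth medium. The METTL3 and METTL14 tables compare each overexpressing line with the same GFP cells in growth medium, so all 3 comparisons share their control libraries. Each table lists only the genes that passed the authors' false discovery rate threshold in that comparison. A row therefore records that the authors called the gene in either direction. A gene without a row in a table has no value there, and its absence shows neither that it did not change nor that it was not expressed. The authors' own fold changes and p-values were not used, so no direction or size of change is given for any gene.

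The only measurement read from the rows was the authors' mean normalized count, a read count corrected for library size and averaged over libraries. It was the same in every table for a gene, so it is 1 value for the whole experiment and not a level in any one group. No per-library numbers were in the tables. These means therefore have no SD and no n, and no difference between 2 genes could be set against replicate spread. The depth of the libraries was not used here. To compare genes of unequal length, each mean was divided by the kilobases of annotated exon of the gene, and levels are given below per kb unless a count is named. Orders between genes are for this exon length and can turn with another. Where another annotated length moved a printed ratio of 2 genes by more than 1.5 times, that ratio is given too.

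The labelled cell type could be checked only through marker rows. The muscle genes Des, Acta1, Ckm, Myog, Myod1 and Myf5 all had rows, with mean normalized counts from 593 for Myf5, a myogenic transcription factor of dividing myoblasts, to 53546 for Acta1, the skeletal muscle actin. The endothelial markers Pecam1 and Cdh5, the immune marker Ptprc and the epithelial marker Epcam had no row and so no value. Mettl3 had a row in the METTL3 table, and Mettl14 had rows in the METTL14 and D4 tables.

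Carriers matter to muscle in several ways. Dividing myoblasts import glutamine, leucine and other amino acids for protein synthesis, and the supply of amino acids is read by the mTORC1 kinase at the lysosome. Working muscle takes up glucose, exchanges lactate and protons with the blood, and exchanges the ATP made in its mitochondria for ADP.

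Of the 142 solute carrier genes, 136 had a row in the D4 table, 24 in the METTL3 table and 16 in the METTL14 table. Among all annotated protein-coding genes, 40.1% had a row in the D4 table, 7.80% in the METTL3 table and 4.91% in the METTL14 table. The same shares among the 342 annotated protein-coding genes whose names fit the rule were 39.2%, 7.02% and 4.68%, with 134, 24 and 16 genes, since Slc49a4 and Slc66a2 have other names in that annotation. The solute carrier genes were thus listed about as often as protein-coding genes in general in each comparison, and the counts by themselves are not a result about carriers. Both shares count annotated genes, whether or not the cells express them, because the number of genes the authors tested is not used here.

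The substrate groups spread around these background shares. In the D4 table, 26 of the 47 annotated mitochondrial carriers had a row, or 55.3%. The lactate and monocarboxylate family was listed for 7 of 14 genes, the group of nucleosides, nucleotide sugars, vitamins and heme for 12 of 25, amino acids and peptides for 21 of 47, or 44.7%, and ions, pH and metals for 36 of 85, or 42.4%. Sugars and polyols were listed for 11 of 33 genes. The lowest shares were those of the carriers of neurotransmitters, taurine and creatine, with 4 of 25, and of organic ions, bile acids and drugs, with 8 of 48, or 16.7%. Many members of the latter pair of groups are known from brain, liver and kidney, and the lack of a row says nothing about whether C2C12 cells express them. In the METTL3 table the amino acid group had 7 of 47 genes, or 14.9%, the group of nucleosides, nucleotide sugars, vitamins and heme 4 of 25, or 16.0%, and the monocarboxylate family 3 of 14, while the lipid and neurotransmitter groups had none. In the METTL14 table the amino acid group had 4 of 47, or 8.51%, and no carrier of the mitochondrial, organic ion or lipid groups had a row. These shares were not tested against the background, and groups of this size shift by several percent with a single gene.

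**Figure D1:**
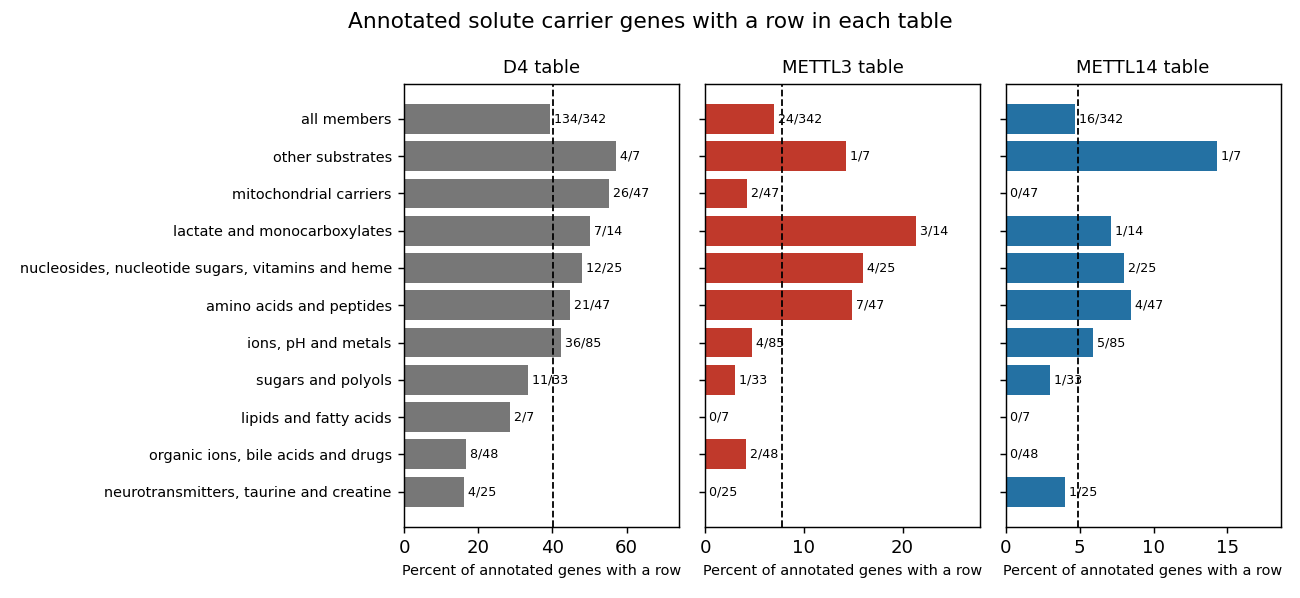
Percent of the annotated protein-coding genes of each substrate group that had a row in the D4, METTL3 and METTL14 tables, with the number of genes beside each bar. The dashed line marks the share among all annotated protein-coding genes, 40.1%, 7.80% and 4.91%, and the bar of all members ends close to it in each panel.

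The level of the 142 genes ran from 1.02 per kb for Slc2a3 to 2748 for Slc25a4, a 2704-fold range. Their median was 75.4 per kb against 115 for all listed protein-coding genes, and 54 of the 142, or 38.0%, lay above the latter value. The 5 highest genes made up 31.0% of the sum over all 142, the 10 highest 48.5% and the 20 highest 66.1%. By exon length the order was Slc25a4, Slc25a5, Slc25a3, Slc38a2 and Slc6a6, followed by Slc3a2, Slc29a1, Slc48a1, Slc25a24 and Slc44a2, and 9 of these 10 were also among the 10 highest by longest transcript and by coding length, in another order. They serve ATP and phosphate exchange in mitochondria, amino acid and taurine uptake, nucleoside and choline transport and the movement of heme out of lysosomes, and so do not belong to 1 substrate group. How far neighbours in this order differ beyond replicate spread cannot be judged from pooled means.

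**Figure D2:**
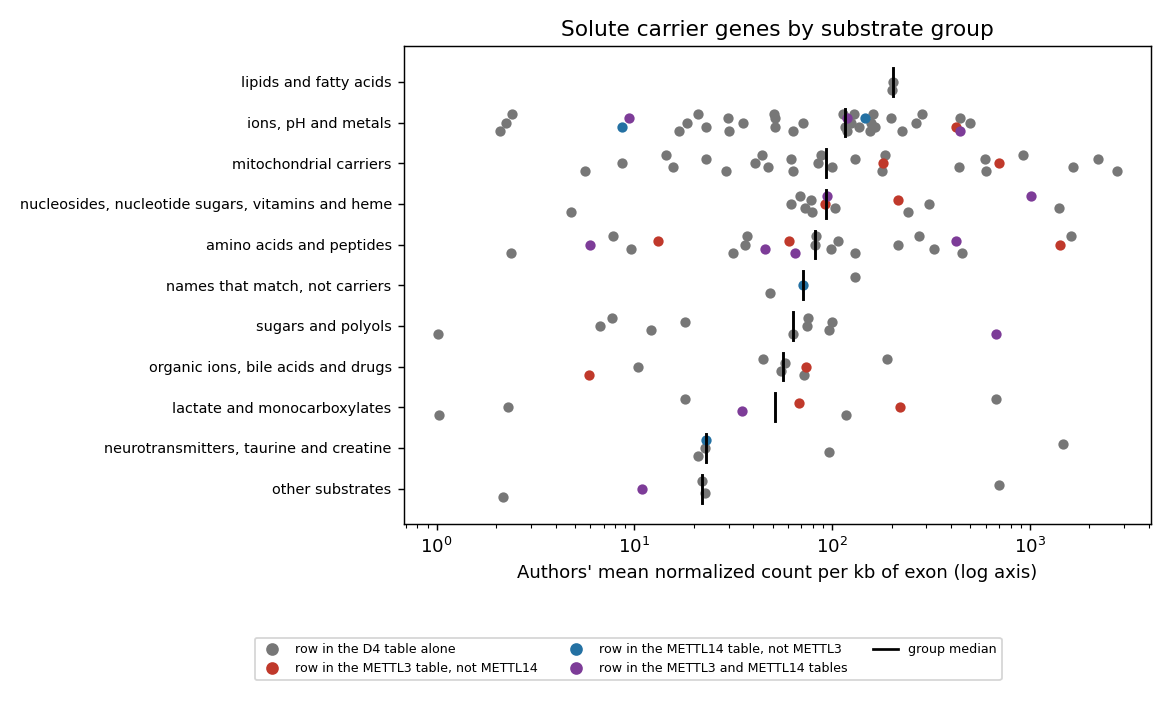
Authors' mean normalized count per kb of exon for each of the 142 genes, on a log axis, by substrate group, with the group median as a black bar. Points are coloured by the tables in which the gene had a row. Within most groups the genes span more than a factor of 100, the mitochondrial carriers from 5.61 to 2748 per kb, while the group medians lie between 22.1 and 203.

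The mitochondrial carriers of the Slc25 family were the largest family, with 26 members, and held 35.7% of the summed level. All 26 had a row in the D4 table, as did 8817 of the 9266 listed protein-coding genes. They are 26 of the 47 annotated mitochondrial carriers, or 55.3%, beside 40.1% of all annotated protein-coding genes. Slc25a4 and Slc25a5 encode adenine nucleotide translocases, which swap matrix ATP for cytosolic ADP. Slc25a4, the form typical of muscle and heart, had a mean normalized count of 6467 and 2748 per kb, and Slc25a5, the form of dividing cells, had 3647 and 2216 per kb. The ratio of the 2 levels was 1.24. Slc25a3, the phosphate carrier that supplies ATP synthase, had the highest mean normalized count of the family, 9165, and 1651 per kb. Slc25a4 lies on chromosome 8 at chr8:46206797-46211284 and Slc25a5 on the X chromosome at chrX:36795651-36798807 (GRCm38).

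Slc25a24, a calcium-regulated ATP-magnesium/phosphate carrier, stood at 929 per kb, and Slc25a39 at 696, which is known for mitochondrial glutathione import. Slc25a37, mitoferrin of iron import, stood at 597 per kb and Slc25a11, the oxoglutarate carrier of the malate-aspartate shuttle, at 599. Slc25a20, which brings acylcarnitines in for fatty acid oxidation, was much lower at 44.1 per kb. The lowest of the family was Slc25a13, an aspartate/glutamate carrier, with a mean normalized count of 21.3 and 5.61 per kb. Of the family, Slc25a39 and Slc25a30, at 696 and 181 per kb, also had a row in the METTL3 table. They are 2 of the 47 annotated mitochondrial carriers, or 4.26%, beside 7.80% of all annotated protein-coding genes, a difference that was not tested.

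The amino acid and peptide carriers numbered 23 and held 17.7% of the summed level. Slc38a2, a sodium-coupled importer of small neutral amino acids, had the highest mean normalized count of all 142 genes, 14365, and 1625 per kb. Slc38a1, which shares chromosome 15 with it, had 2242 and 130.1 per kb. The genes lie 44.5 kb apart on the same strand, and the level of Slc38a2 was 12.5 times that of Slc38a1. The ratio was 7.61 by longest transcript and 6.17 by coding length, as the exon union of Slc38a1 is 17236 bases long. Slc3a2, the heavy chain that carries the Slc7 light chains to the cell surface, had 5022 and 1423 per kb. It had a row in the METTL3 table and none in the D4 table. Slc7a5, the leucine-transporting light chain most often paired with it, had no row in the tables used here.

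Among other light chains and cationic carriers, Slc7a1, the main arginine and lysine importer of dividing cells, stood at 276 per kb, and Slc7a6 at 215. Slc7a2, a second arginine carrier, stood at 64.7 per kb and was listed in all 3 tables. Slc7a11, the light chain of the cystine/glutamate exchanger that feeds glutathione synthesis, was low at 7.77 per kb with a mean normalized count of 108. Slc3a2 was 183 times as high per kb of exon, but 41.2 times as high by coding length, as the exon union of Slc7a11 is 13922 bases long. Slc7a15 was the lowest of the group, with a mean normalized count of 7.11.

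The Slc1 family of glutamate and neutral amino acid carriers gave 3 members. The annotated genes Slc1a1, Slc1a2, Slc1a6 and Slc1a7 had no row. Slc1a3 and Slc1a4 had rows in all 3 tables, as had 7.75% of the 142 genes and 6.84% of all listed protein-coding genes. Slc1a4, which exchanges alanine, serine and cysteine, had a mean normalized count of 1655 and 422 per kb. Slc1a5, the glutamine exchanger of dividing cells, had 447 and 107 per kb and a row in the D4 table alone, so that Slc1a4 was 3.93 times as high. Slc1a3, a glutamate carrier best known from astrocytes, had 391 and 45.8 per kb.

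Other members, some of them lysosomal, filled out the group. Slc38a10 stood at 454 per kb, Slc38a7, a lysosomal glutamine exporter, at 327, and Slc38a9, which senses arginine for mTORC1 at the lysosome, at 31.6. Slc36a4, an amino acid carrier at 60.3 per kb, had a row in the METTL3 table alone. Slc43a1, a carrier of branched-chain amino acids at 13.1 per kb, had rows in the D4 and METTL3 tables. Slc15a3, a lysosomal peptide and histidine carrier, was listed in all 3 tables at only 5.94 per kb, with a mean normalized count of 32.6.

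Promoters of these amino acid genes were searched for the motif TGATGNAA on both strands, since the transcription factor ATF4 is known to bind such elements in genes of amino acid supply. RefSeq promoter windows of 300 bases (GRCm38), from 250 bases before to 50 after the start of transcription, were found for 108 of the 142 genes, in 144 windows. The motif was in 6 of these, or 4.17%, against 3.97% of all 32851 windows. In the amino acid and peptide group it was in 4 of 25 windows, or 16.0%, which belong to Slc1a4, Slc7a11 and, in 2 overlapping windows, Slc7a7. The 2 windows of Slc7a7 share a copy of the motif, so the same site enters this share 2 times. The share was not tested against that of all windows. The windows of Slc7a11 and Slc1a4 are shown because the first holds the motif on both strands and the second belongs to a gene listed in all 3 tables. They are written 5′ to 3′ on the strand of the gene, with the motif in capitals. Both genes lie on the minus strand, and the windows are chr3:50443564-50443863 for Slc7a11 and chr11:20332664-20332963 for Slc1a4.
Slc7a11: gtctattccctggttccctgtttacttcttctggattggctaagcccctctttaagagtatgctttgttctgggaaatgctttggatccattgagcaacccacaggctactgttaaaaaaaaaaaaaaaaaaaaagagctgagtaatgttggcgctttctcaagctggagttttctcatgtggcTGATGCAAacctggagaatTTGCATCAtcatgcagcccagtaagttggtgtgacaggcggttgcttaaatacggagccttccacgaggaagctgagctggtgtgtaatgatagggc
Slc1a4: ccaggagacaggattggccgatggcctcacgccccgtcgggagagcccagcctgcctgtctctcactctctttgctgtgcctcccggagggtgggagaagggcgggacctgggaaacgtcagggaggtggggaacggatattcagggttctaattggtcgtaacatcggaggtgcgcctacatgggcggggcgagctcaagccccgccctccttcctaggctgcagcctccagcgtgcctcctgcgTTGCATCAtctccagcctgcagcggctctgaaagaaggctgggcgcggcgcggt

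In Slc7a11 the forward copy began 66 bases before the start of transcription and the reverse copy 47 bases before it. In Slc1a4 the single copy was on the reverse strand and began 4 bases before the start, so that it ran across it. A match only describes these letters in these windows. Binding was not measured, and a window without the motif says nothing about the factor.

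Sugar and polyol carriers numbered 11, and all had a row in the D4 table. They are 11 of the 33 annotated genes of the group, or 33.3%, beside 40.1% of all annotated protein-coding genes. Slc2a1 encodes GLUT1, the basal glucose carrier of most dividing cells. It had a mean normalized count of 2378 and 678 per kb, and was the one sugar carrier with rows in the METTL3 and METTL14 tables as well. Slc2a4, the insulin-responsive GLUT4 of mature muscle and fat, had a mean normalized count of 26.7 and 7.67 per kb, so that Slc2a1 was 88.5 times as high. Slc2a3, the high-affinity GLUT3 of neurons, stood at 1.02 per kb with a mean normalized count of 7.36. It was lowest of all 142 genes by exon length, next to Slc16a12 at 1.03, which was lowest by longest transcript and by coding length.

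Slc2a6 stood at 100.2 per kb. Slc5a3, the sodium-coupled importer of myo-inositol that cells use as an osmolyte, had a mean normalized count of 1052 and 96.4 per kb, and by coding length it was above Slc2a6. Slc37a4, the glucose-6-phosphate carrier of the endoplasmic reticulum, stood at 75.0 per kb.

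The Slc16 family of monocarboxylate carriers gave 8 members. Slc16a1 encodes MCT1, which moves lactate with protons in either direction, and had a mean normalized count of 2994 and 676 per kb. Slc16a3 encodes MCT4, the lactate exporter of glycolytic muscle, and had 361 and 67.8 per kb. Slc16a1 was 9.97 times as high as Slc16a3. Slc16a1 had a row in the D4 table alone, and Slc16a3 in the METTL3 table alone.

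Slc16a11 had rows in the D4 and METTL3 tables and stood at 220.4 per kb, and Slc16a13 stood at 117. These 2 genes lie side by side on chromosome 11, on opposite strands and 371 bases apart. Slc16a12 and Slc16a8 had the lowest mean normalized counts of all 142 genes, 4.28 and 5.25, where a row rests on very few reads per library.

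The carriers of ions, protons and metals were the most numerous group, with 37 members, and held 15.7% of the summed level. Their median, 116 per kb, was close to that of all listed protein-coding genes. By exon length the 3 highest were zinc importers of the Slc39 family, Slc39a1 at 498 per kb, Slc39a13 at 444 and Slc39a6 at 443. The order depended on the length used, with Slc39a13 and Slc4a2 highest by longest transcript and Slc39a13 and Slc31a1, a copper importer, by coding length. Slc39a14, which also takes up iron and manganese, stood at 157 per kb of exon. Slc39a13, whose product moves zinc in the early secretory pathway and is needed by connective tissue, was the one Slc39 gene with rows in all 3 tables. Slc30a1, the zinc exporter of the plasma membrane, stood at 30.2 per kb.

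The chloride cotransporters of the Slc12 family set the chloride content and volume of the cell. Slc12a4, a potassium-chloride cotransporter found in most cells, stood at 424 per kb and had rows in the D4 and METTL3 tables. Slc12a7, of the same type, stood at 147 per kb and had rows in the D4 and METTL14 tables. Slc12a2, the sodium-potassium-chloride importer, stood at 116 per kb, which was 47.9 times the level of Slc12a5, the neuronal potassium-chloride exporter, at 2.42.

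For pH, Slc4a2, a chloride/bicarbonate exchanger, stood at 286 per kb. Slc4a4, a sodium-bicarbonate cotransporter, was lower at 9.39 per kb with a mean normalized count of 102. It had rows in both METTL tables and none in the D4 table, the one gene of the 142 with that pattern.

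For calcium, Slc8a1, the sodium/calcium exchanger of the heart, had a mean normalized count of 163 and, on its 18807 bases of exon, 8.69 per kb. It had rows in the D4 and METTL14 tables. Slc24a3, a potassium-dependent sodium/calcium exchanger, stood at 119 per kb and was listed in all 3 tables. Slc8a3, the exchanger form of skeletal muscle, and Slc20a1, a phosphate importer, had no row in the tables used here. The group also held 3 of the least abundant genes, with mean normalized counts of 10.2 for Slc24a4, 11.4 for Slc26a7 and 18.1 for Slc12a5.

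Slc6a6, the taurine importer, had the second highest mean normalized count of all 142 genes, 12468, and 1474 per kb. It had a row in the D4 table alone. The other 4 members of its group were far lower, from 21.0 per kb for Slc6a2, the noradrenaline carrier, to 96.8 for Slc6a9, a glycine carrier. Slc6a19, an importer of neutral amino acids, stood at 22.9 per kb. Slc6a17, a vesicular amino acid carrier at 23.0 per kb, had a row in the METTL14 table alone and was the one gene of the 142 with that pattern. Slc6a8, the creatine importer, had no row in the tables used here.

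Nucleosides, nucleotide sugars, vitamins and heme had 14 members and 12.3% of the summed level. Slc29a1, the equilibrative nucleoside carrier of most cells, had a mean normalized count of 5644 and 1408 per kb, 14.9 times the 94.6 per kb of its relative Slc29a2, and 23.4 times by longest transcript. Slc29a1 had a row in the D4 table alone, and Slc29a2 in all 3. Slc48a1, which moves heme out of lysosomes, stood at 1010.3 per kb and also had rows in all 3 tables. Slc35a4, a Golgi member of the nucleotide sugar family, stood at 309 per kb. Slc35a1, which brings CMP-sialic acid into the Golgi, stood at 215 per kb and had a row in the METTL3 table alone. Slc19a2, a thiamine importer, stood at 92.3 per kb with rows in the D4 and METTL3 tables. Slc46a3 was the lowest of the group, with a mean normalized count of 11.8.

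Organic ion, bile acid and drug carriers had 8 members, none above 190.5 per kb of exon, the level of the orphan carrier Slc10a3. Slc22a23, another orphan at 74.1 per kb, and Slc22a17, a receptor for lipocalin at 5.92 per kb, had rows in the D4 and METTL3 tables. Slc17a5, which exports sialic acid from lysosomes, stood at 72.2 per kb. Slc22a5, the carnitine importer, and Slc22a4, which lie 91.5 kb apart on chromosome 11, stood at 57.7 and 55.5 per kb.

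The lipid group had 2 members of like level, Slc33a1, the acetyl-CoA carrier of the endoplasmic reticulum, at 204 per kb and Slc27a4, a fatty acid carrier and acyl-CoA synthetase, at 202. Among the rest, Slc44a2, a choline carrier, stood out with a mean normalized count of 6062 and 699 per kb. Slc44a4 and Slc66a2 stood at 22.9 and 22.1 per kb. Slc44a3 had one of the lowest mean normalized counts, 11.0. Slc14a1, a urea carrier on chromosome 18, had rows in all 3 tables with a mean normalized count of 43.6. The 3 genes that are not carriers stood at 130.4 per kb for Slc7a6os, 71.7 for Slc9a3r1 and 48.3 for Slc9a3r2, and Slc9a3r1 had rows in the D4 and METTL14 tables.

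In all, 28 of the 142 genes, or 19.7%, had a row in the METTL3 or the METTL14 table, beside 21.6% of all 9266 listed protein-coding genes. Of the 142, 11 or 7.75% had a row in all 3 tables, beside 6.84% of all listed genes. Among the 11 were Slc1a3, Slc1a4, Slc2a1, Slc7a2, Slc14a1, Slc15a3, Slc24a3, Slc29a2, Slc39a13 and Slc48a1. The genes named move glutamate, neutral and cationic amino acids, peptides, glucose, urea, calcium, nucleosides, zinc and heme. A further 8, or 5.63%, had rows in the D4 and METTL3 tables and 3, or 2.11%, in the D4 and METTL14 tables, beside 7.64% and 2.24% of all listed genes. Rows in the METTL3 table alone were found for 4 genes, or 2.82%, beside 2.29% of all listed genes. The METTL14 table alone held 1 gene, or 0.704%, beside 0.831%, and both METTL tables without the D4 table held 1, or 0.704%, beside 1.73%. Since each table was made against the same GFP growth-medium libraries, rows shared between tables are not independent of each other, and the overlap is given only as a listing.

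**Figure D3:**
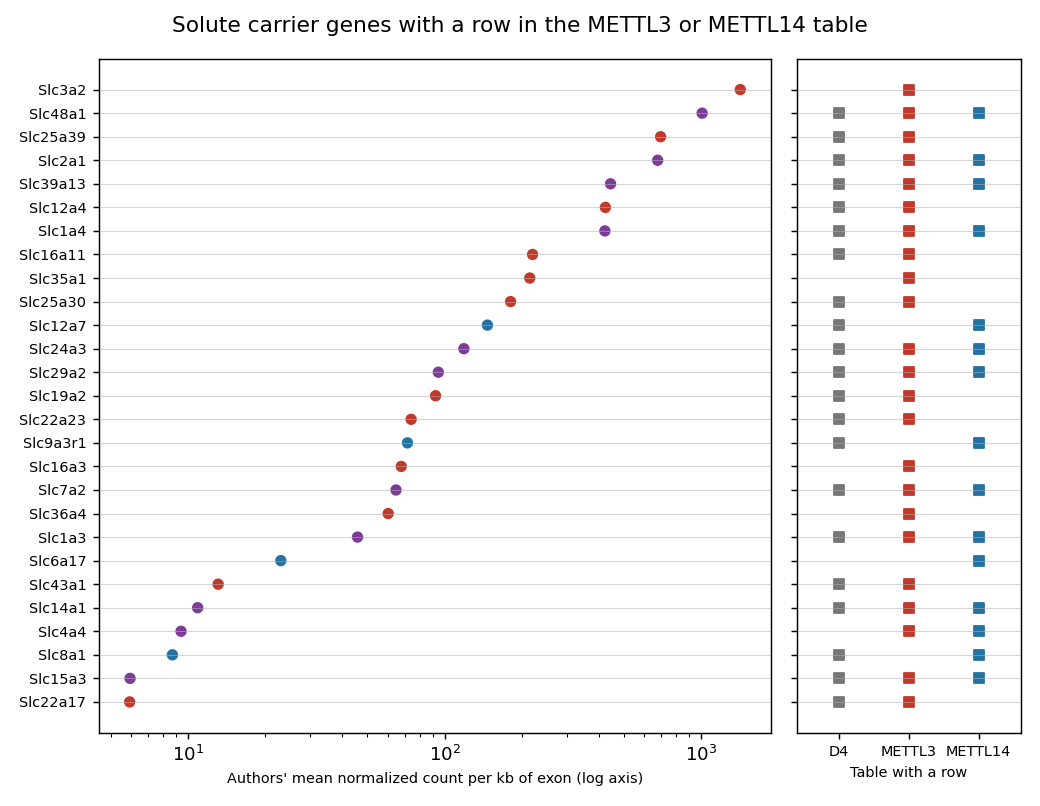
Solute carrier genes with a row in the METTL3 or METTL14 table, 27 of the 28. The left panel gives the authors' mean normalized count per kb of exon on a log axis, coloured red for a row in the METTL3 table without METTL14, blue for METTL14 without METTL3 and purple for both, and the right panel marks each table with a row. The genes span 5.92 per kb for Slc22a17 to 1423 for Slc3a2.

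The median level over the solute carrier genes was 77.0 per kb in the D4 table, 93.5 in the METTL3 table and 68.2 in the METTL14 table, beside 117, 127 and 113 for all protein-coding genes listed in the same tables. In each table the carrier genes thus had the lower median, which was not tested.

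The complex of METTL3 and METTL14 methylates adenosine within a short consensus, of which GGACT, written as DNA, is the best known form. The motif was counted on the sense strand of the transcript with the longest coding part of each gene. The median was 1.24 per kb of transcript for the 24 carrier genes of the METTL3 table and 1.10 for the 16 of the METTL14 table, beside 1.08 and 1.09 for all protein-coding genes of those tables. For the 136 carrier genes of the D4 table it was 1.10, beside 1.05. Slc48a1 held 6 copies in 2536 bases and Slc15a3 held 5 in 2345, while Slc7a2 and Slc4a4 held none in 3681 and 3494 bases. These counts describe sequence only, and methylation was not measured in these values.

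Of the 26 carrier genes chosen for their known roles in muscle or dividing cells, 22 had a row in at least 1 table, 20 of them in the D4 table, 3 in the METTL3 table and 2 in the METTL14 table. These are 76.9%, 11.5% and 7.69% of the list, beside 40.1%, 7.80% and 4.91% of all annotated protein-coding genes. The list was picked by hand with earlier results of these data known and for genes that such cells express, so nothing is read from its shares. The 4 without a row were Slc7a5, Slc8a3, Slc20a1 and Slc6a8. The METTL3 rows were those of Slc3a2, Slc2a1 and Slc16a3, and the METTL14 rows those of Slc2a1 and Slc8a1.

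Some levels are less certain than others. Overlap with a coding gene on the other strand was found in the annotation for 21 of the 142 genes, among them Slc39a13 with Psmc3 and Slc48a1 with Hdac7. Whether counting used the strand is not given in the sources used here, so reads from such pairs may not be told apart. Slc25a5 and Slc39a1 each have an annotated pseudogene, which could take or lend reads.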

How the data were processed

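C2C12 RNA-seq reads were, per the paper's methods, aligned by the authors to GRCm38 with hisat2, counted per gene with featureCounts on Ensembl annotation and compared with DESeq2, and genes within their false discovery rate threshold were deposited in 3 tables. The deposited signal used here is the authors' mean normalized count, which pools libraries. Which libraries entered it is not given in the sources used here, and its value agreed between tables within a relative difference of 4.77e-10. The tables also hold the authors' fold changes, standard errors, test statistics, p-values and adjusted p-values, which were not used. The tables give no value per library, so no test was run and the counting error is unknown. Library depth was not used.

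Rows were matched by gene identifier to GENCODE M21 (GRCm38), another annotation release of the same build, which gave a gene model for all 142 genes, 140 of them under a name that also fits the rule. Levels were divided by the union of annotated exons. Background shares are of 21951 annotated protein-coding genes. Substrate groups were set by family number, except for Slc5a5 and the names that are not carriers. Named genes were every gene of the muscle list, the 3 highest per kb of each group, every gene with a row in a METTL table and the 10 with the lowest mean normalized count, and any other gene is named as part of its family. Some genes that this rule takes are counted but not reported here. The members and lists were chosen with earlier results of these data known. Alternatives were other lengths, count minimums of 10 and 100 and a wider or narrower name rule. The counting steps were tested on simulated data. Python 3.11.15, pandas 2.3.3 and matplotlib 3.10.9 were used.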

Additional observations from a re-analysis of the deposited data

How the results depend on the processing

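The number of solute carrier genes listed stayed within 1.5 times the reported count under each alternative. Also counting Slco genes and Slc-named genes of any type gave 150, 27 and 19 genes in the D4, METTL3 and METTL14 tables, and a minimum mean normalized count of 100 gave 112, 20 and 14. Leaving out the 3 genes that are not carriers, an alternative chosen after seeing the data, gave 133, 24 and 15. The median level of 75.4 per kb became 101 with the longest transcript in place of the exon union and 259 with the coding length, as a length no longer than the exon union cannot lower a level. The median of all listed protein-coding genes became 156 and 357, so it stayed above that of the carriers. The carriers' median became 78.9 with a minimum mean normalized count of 10 and 75.7 without the genes that are not carriers. Of the 10 highest genes per kb, 9 were also among the 10 highest with each of the other lengths, though their order changed. Leaving out replicates could not be done because the tables give no value per library. No paired analysis was possible because the result comes from no test and the tables hold pooled means.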
